A study of Mus musculus with 6 samples.

Results

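The 33 genes of fatty acid beta-oxidation were followed in mouse hearts, taken as the probe sets that the platform table assigns to 1 gene symbol among them and read, for each gene, from the brightest probe set over the 6 arrays. Of the 33 genes 32 could be read, out of 12944 genes tested on the array. Cpt1b, the carnitine palmitoyltransferase 1 of muscle, was not read, because its probe set carries several gene symbols. The labels give 3 hearts of mice null for ERRα (labelled KO), the nuclear receptor estrogen-related receptor alpha that Esrra encodes, and 3 hearts of wild-type (WT) mice. All 6 mice were male, and all hearts are titled basal. Of the 6 mice 5 are labelled C57BL/6J, 2 to 3 months old; for WT 1 the labels leave strain and age out, and a comment in its array's header carries a different WT mouse number from the title, which was used here. The construction of the null allele is not described in these sources. RNA of every heart was read on a separate Affymetrix Mouse430_2 array, a 3′ expression array. Values are MAS5 signals in arbitrary units after quantile normalization between arrays, and differences are KO minus WT on the log2(signal + 16) scale.

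Beta-oxidation shortens fatty acyl-CoA by repeated rounds of dehydrogenation, hydration, a second dehydrogenation and thiolysis, and it supplies most of the fuel of the adult heart. Long chains reach the mitochondrial matrix as carnitine esters, unsaturated chains need auxiliary isomerases and reductases, and the electrons taken by the acyl-CoA dehydrogenases pass through electron transfer flavoprotein to ubiquinone. Peroxisomes run a parallel pathway for very long and branched chains. ERRα binds the DNA element TNAAGGTCA, works with the coactivator PGC-1α, and is known as a regulator of genes of mitochondrial energy metabolism, among them Acadm.

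Esrra itself was read before the pathway, to test the labels. It gave signals of 182.8, 24.45 and 18.02 in the hearts labelled KO 1, KO 2 and KO 3, against 313.1, 419.7 and 372.0 in WT 1 to 3 (log2 difference -2.56, SE 0.507, limma adjusted p = 0.0243). Relative to the mean of the WT hearts this was 49.6% in the heart labelled KO 1, 6.64% in KO 2 and 4.89% in KO 3, so KO 1 went against its label. Which part of the transcript the allele removes is not described in these sources, so the probe set's place relative to it is unknown. All directions below include that heart unless its omission is stated. The arrays as deposited were unequally bright, with a mean signal trimmed by 2% of 72.1 in WT 1 and of 57.1 to 63.4 in the other hearts. Markers of other tissue parts differed between the groups. The summed signal of 6 atrial myocyte markers was 13520 to 16140 in hearts labelled KO and 3110 to 9888 in WT, with WT 3 the highest WT heart, and all 6 rose. That of 5 white adipocyte markers was 93.2 to 570.3 against 37.5 to 53.8, where Adipoq rose and Lep was too dim in every heart to pass the filter. All 4 white adipocyte markers tested were higher at an unadjusted p under 0.05 (limma). The sum of 8 fibroblast markers was 7822 to 9384 against 6118 to 6541, with 4 that rose. All 8 were higher at an unadjusted p under 0.05 (limma), without overlap between the groups. The sum of 5 smooth muscle and pericyte markers was 5791 to 7803 in hearts labelled KO and 4708 to 5605 in WT. Of these 0 passed the test (limma, with 3 higher at an unadjusted p under 0.05). That of 6 skeletal muscle markers was 6339 to 7106 and 7300.0 to 7848, with Acta1 lower. Most of this last sum came from Ckm and Acta1, which heart muscle also expresses, so the sum does not measure skeletal muscle. Of the 4 skeletal muscle markers tested, 2 had positive differences, Tnni2 (1.51) and Mylpf (0.13), and neither passed (limma, with 1 higher at an unadjusted p under 0.05). The 10 general and ventricular cardiomyocyte markers summed to 75970 to 77460 in hearts labelled KO and to 76400 to 76930 in WT. Of them 0 passed the test (limma, with 1 lower at an unadjusted p under 0.05). Most of that sum comes from probe sets among the brightest of each array, to which quantile normalization gives nearly the same values in every array. Near-equal sums were therefore largely set by the normalization and do not measure myocyte content. The part of these tissue differences in the results below was not tested.

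The beta-oxidation transcripts lay below WT by modest amounts across most steps of the pathway. Differences were negative for 30 of the 32 genes (median -0.29), against 52.6% negative and a median of -0.01 over all 12944 genes. The 10 that fell past the test were Cpt2, Acad11, Hadha, Acaa2, Eci1, Eci2, Decr1, Etfdh, Ehhadh and Scp2, against 1.39% of all genes, and 0 rose, against 2.01% of all genes (limma on all genes, two-sided, Benjamini-Hochberg, threshold 0.05). At an unadjusted p under 0.05 there were 20 lower, against 9.46% of all genes, and 0 higher. All 3 hearts labelled KO lay below all 3 WT hearts for 20 of the 32 genes, against 12.6% of all genes, and above them for 0, against 11.2%. In the 10 genes that fell the mean signal in hearts labelled KO was 44.9% to 83.6% of the WT mean. In whole hearts, fewer myocytes and less transcript per myocyte cannot be told apart.

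How many genes passed depended on single hearts, while the median difference moved less. The number that fell was 19 without the heart labelled KO 1, against 3.70% of all genes in that comparison, with 0 that rose, against 3.98%. It was 2 without KO 2 (against 0.278% of all genes) and 2 without KO 3 (0.439%). It was 1 without WT 1 (0.124%), 1 without WT 2 (0.147%) and 2 without WT 3 (0.356%). The share of all genes that fell was thus also below the 1.39% of the main fit in each of these. With any 1 heart left out the median difference stayed between -0.30 and -0.23. With the signal as deposited 6 fell, against 1.13% of all genes, and 0 rose, against 1.77%; 5 of the 6 were among the 10, and the other was Acadvl. With no intensity trend in the variance 0 of the 32 passed, of 28 among all genes, although 17 were below an unadjusted p of 0.05. Of the settings run, Decr1 passed in 20, Cpt2 in 18, Ehhadh in 16, Acad11 and Hadha in 15, Scp2 in 13, Acaa2 in 11 and Eci1 and Etfdh in 10 of 22, and Eci2 in 10 of 21.

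**Figure D1:**
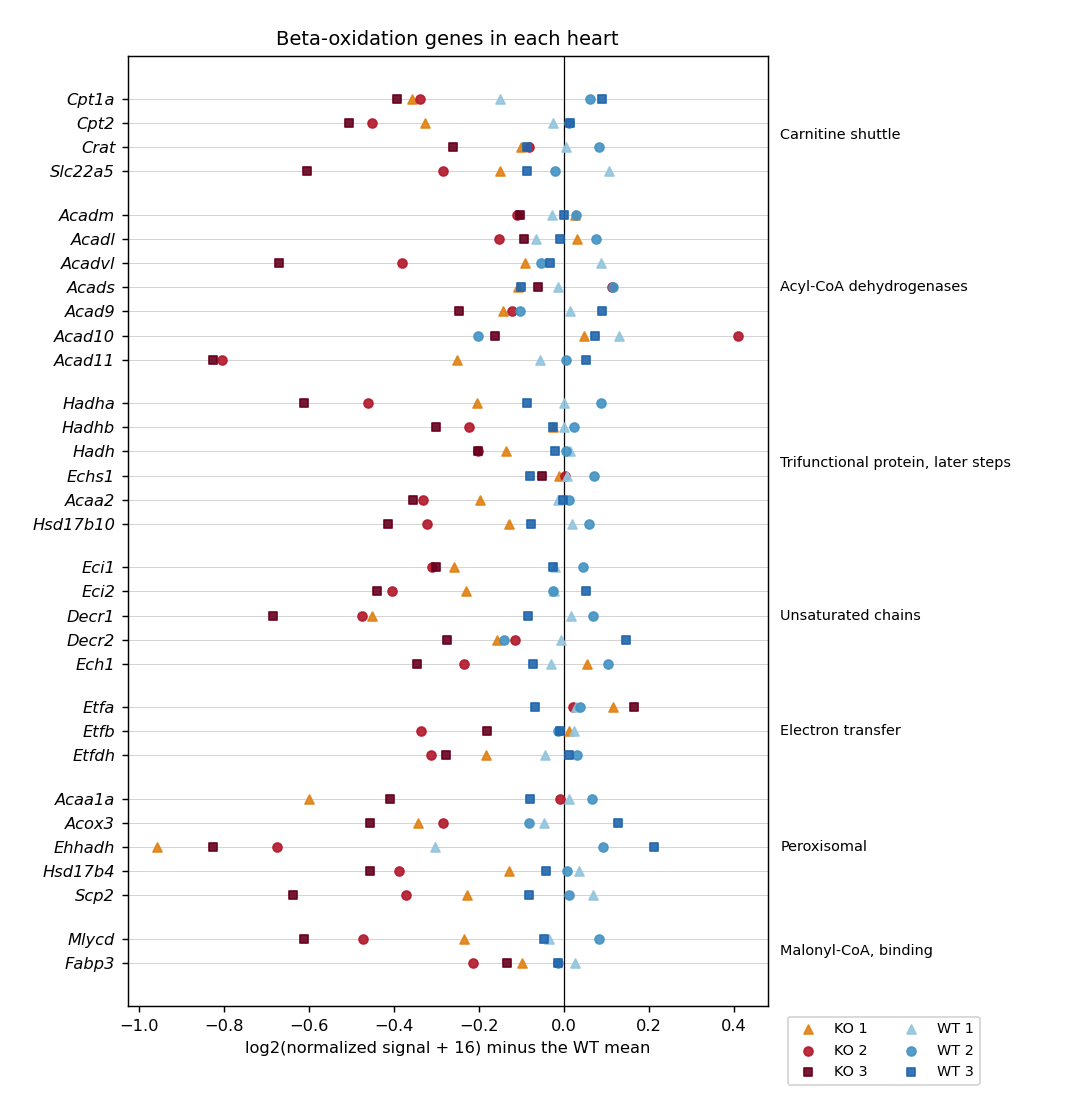
Log2(normalized signal + 16) of each of the 32 genes in each heart, minus the mean of the 3 WT hearts, with genes grouped by step down the page; warm symbols are the hearts labelled KO 1 to 3 and blue symbols WT 1 to 3. For 20 of the 32 genes every heart labelled KO lies left of every WT heart, and the triangle of KO 1 often lies between KO 2 or KO 3 and WT.

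**Figure D2:**
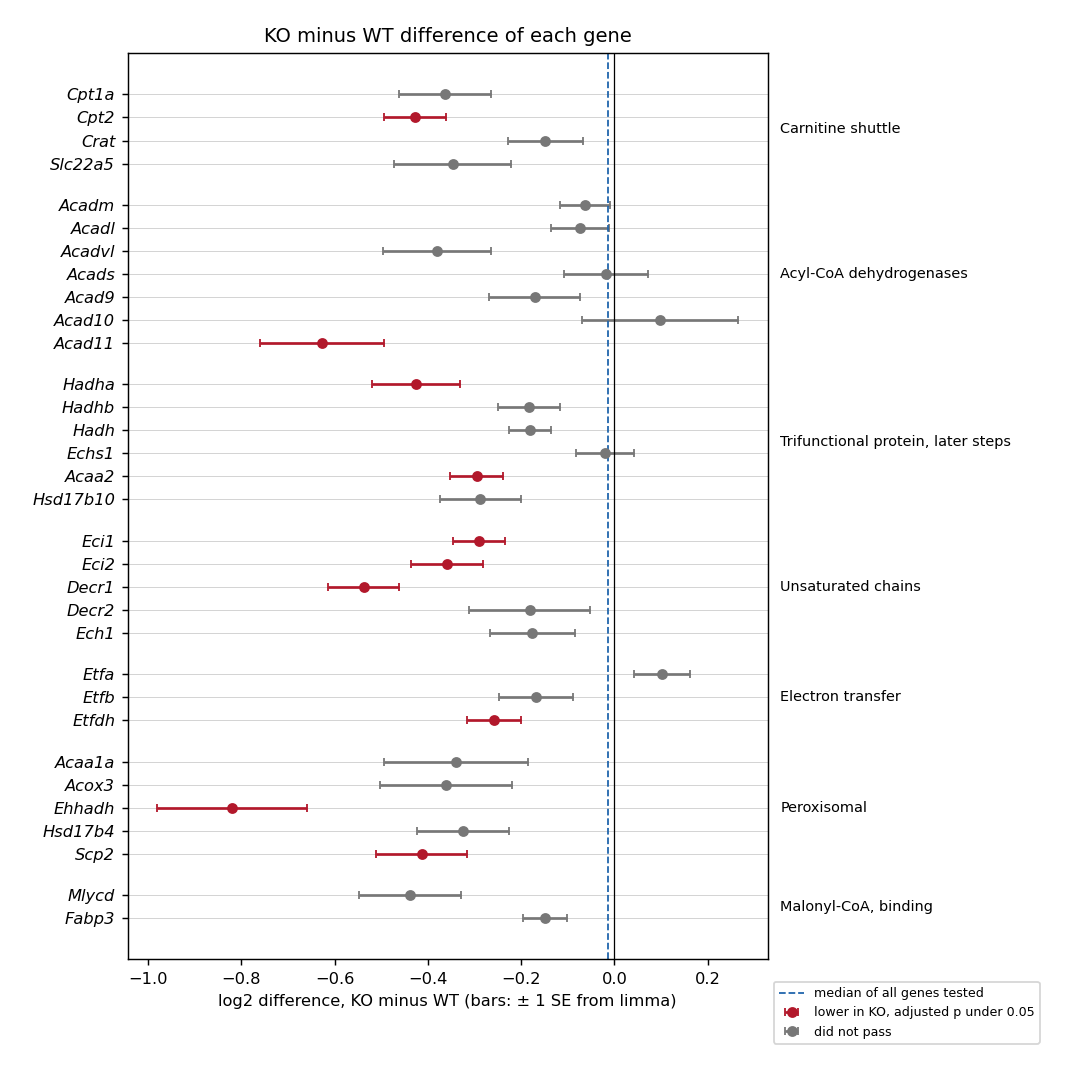
KO minus WT difference of each gene on the log2(signal + 16) scale, with bars of 1 SE from limma (3 hearts each) and the median of all genes tested as a dashed line. The 10 genes past the test, in red, run from -0.82 for Ehhadh to -0.26 for Etfdh, and only Etfa and Acad10 have positive values.

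The carnitine shuttle carries long-chain acyl groups into the matrix. All 4 of its measured members had negative differences, and 1, Cpt2, passed. Cpt2, the inner-membrane transferase that remakes acyl-CoA from acylcarnitine, gave 1246, 1141 and 1098 in the hearts labelled KO 1 to 3 and 1537, 1579 and 1581 in WT 1 to 3. The groups did not overlap, and the log2 difference was -0.43 (SE 0.0669, limma adjusted p = 0.0104). Cpt1a, the outer-membrane transferase of liver that the heart also expresses, gave 166.0, 168.4 and 161.7 against 194.0, 227.5 and 232.0 (-0.36, limma adjusted p = 0.0735). Slc22a5, the plasma-membrane carnitine transporter, was at 153.6 ± 26.5 in hearts labelled KO and 198.2 ± 14.6 in WT (SD, n = 3 each; -0.35, limma adjusted p = 0.165). KO and WT hearts did not overlap for either gene, yet neither passed. Crat, which makes acetylcarnitine in the matrix, was at 653.8 ± 44.8 and 725.7 ± 43.4, and its groups overlapped. The inner-membrane carrier that exchanges acylcarnitine for carnitine, Slc25a20, was outside the 33 genes; it gave 917.7, 762.1 and 707.4 in the hearts labelled KO 1 to 3, against 1114, 1221 and 1208 in WT.

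The acyl-CoA dehydrogenases, which open each round and differ in the chain length they take, ranged from 65.3% of the WT mean for Acad11 to 111% for Acad10, and 1 of 7 passed. The medium-chain enzyme gene Acadm gave 4604, 4186 and 4204 in the hearts labelled KO 1 to 3, against 4432, 4610 and 4521 in WT. The groups overlapped, with a log2 difference of -0.06 whose 95% interval ran from -0.18 to 0.06. Acadl, the long-chain enzyme gene, gave 4237, 3728 and 3881 against 3961, 4368 and 4123 (-0.07, interval -0.21 to 0.07). Acads, the short-chain enzyme gene, was at 519.2 ± 44.2 against 526.0 ± 41.4 (-0.02, interval -0.22 to 0.18; SD, n = 3 each). For none of the 3 did the interval reach the -0.29 that was the median over the pathway.

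Acadvl encodes the enzyme of very long chains at the inner membrane. It gave 3339, 2727 and 2230 in the hearts labelled KO 1 to 3 and 3780, 3425 and 3480 in WT, without overlap. Acadvl did not pass at -0.38 (SE 0.116, limma adjusted p = 0.104). It was -0.44 with the signal as deposited (limma adjusted p = 0.0391) and -0.52 without the heart labelled KO 1 (limma adjusted p = 0.00331). Acadvl passed in only 3 of 22 settings, namely these and the signal as deposited without KO 1. Acad11, a less studied family member, gave 788.7, 531.7 and 524.0 against 904.5, 945.2 and 976.0 (-0.63, SE 0.133, limma adjusted p = 0.0316). Its other bright probe set gave 450.4, 352.5 and 284.6 against 692.8, 612.2 and 718.8, a difference of -0.89. Acad9, known mainly as an assembly factor of complex I, was at 161.1 ± 7.97 against 183.4 ± 13.3, and Acad10, another less studied member, at 48.8 ± 13.3 against 44.0 ± 7.13 (SD, n = 3 each). Neither passed.

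The Acadm start-site window is shown because Acadm is a known target of ERRα and lay close to its WT level here. The window, chr3:153944594-153944893 on the minus strand of GRCm38.p6 (RefSeq), runs from 250 bases before to 50 bases after the start. Capitals mark its 1 match to the core AAGGTCA, which lies on the opposite strand from -249 to -243.
Acadm: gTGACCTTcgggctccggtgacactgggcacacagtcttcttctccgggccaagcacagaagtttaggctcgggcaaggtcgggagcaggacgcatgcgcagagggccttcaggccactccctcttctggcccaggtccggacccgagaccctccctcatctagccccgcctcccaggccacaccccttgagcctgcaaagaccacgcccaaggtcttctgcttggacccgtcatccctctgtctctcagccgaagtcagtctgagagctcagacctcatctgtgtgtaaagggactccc
Among the 27 genes of the pathway with such a window, this was the only match; 4.72% of all 32851 windows hold AAGGTCA on either strand. The full element TNAAGGTCA was found in 0 of the 27 and in 1.28% of all windows, its form TCAAGGTCA in 0 and 0.423%, and a direct repeat of AGGTCA with 1 base between the copies in 0 and 0.04%, both strands in each search. TCAAGGTCA is a form of TNAAGGTCA, and both contain AAGGTCA, so these searches overlap. The counts say only that the letters are not in these 300 bases.

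The mitochondrial trifunctional protein carries out the later steps on long chains, and the array reads both of its subunits. Hadha encodes the subunit with the hydratase and hydroxyacyl-CoA dehydrogenase activities. Its signal was 2396, 2003 and 1801 in the hearts labelled KO 1 to 3 and 2764, 2936 and 2599 in WT, without overlap (log2 difference -0.43, SE 0.0943, limma adjusted p = 0.0363). Hadhb, which encodes the thiolase subunit, gave 6150, 5361 and 5077 against 6261, 6366 and 6150 (-0.18, SE 0.0668, limma adjusted p = 0.171). After normalization the heart labelled KO 1 shared its value with WT 3, so the groups touched (6072.3 and 6068.3 as deposited). A second bright Hadhb probe set gave 1776, 1235 and 1596 against 1852, 1808 and 1944, without overlap (-0.30). The ratio of Hadha to the brightest Hadhb probe set within each array does not depend on the scaling between arrays. As log2 relative to the WT mean it was -0.19, -0.23 and -0.28 in the hearts labelled KO and 0.07, 0.02 and -0.09 in WT. Its exact permutation p was 0.1, the smallest that 3 against 3 hearts allow (two-sided). After Benjamini-Hochberg adjustment over 6 ratios chosen after the values were seen, this permutation p was 0.12. The second Hadhb probe set did not keep the groups apart. Its deposited signal was 1179.9 in KO 2 and 1851.7 in WT 3, with Hadha at 1936.8 and 2534.1. With it the ratio was thus higher in KO 2 than in WT 3.

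Both genes start from the same stretch of chromosome 5, in opposite directions, which is why their start-site windows are shown. The starts lie 273 bases apart, and the windows, chr5:30154931-30155230 on the minus strand for Hadha and chr5:30155003-30155302 on the plus strand for Hadhb (GRCm38.p6, RefSeq), share 228 bases, printed in capitals. Each window is written in the direction of its own gene, so that the shared bases of one are the reverse complement of those of the other.
Hadha: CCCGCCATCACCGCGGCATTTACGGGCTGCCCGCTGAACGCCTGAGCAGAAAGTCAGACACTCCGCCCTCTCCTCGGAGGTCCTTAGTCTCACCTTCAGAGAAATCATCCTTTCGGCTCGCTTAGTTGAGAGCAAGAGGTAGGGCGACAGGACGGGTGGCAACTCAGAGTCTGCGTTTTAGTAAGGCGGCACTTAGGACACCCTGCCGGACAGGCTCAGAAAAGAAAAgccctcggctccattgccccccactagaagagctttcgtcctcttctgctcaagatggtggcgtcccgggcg
Hadhb: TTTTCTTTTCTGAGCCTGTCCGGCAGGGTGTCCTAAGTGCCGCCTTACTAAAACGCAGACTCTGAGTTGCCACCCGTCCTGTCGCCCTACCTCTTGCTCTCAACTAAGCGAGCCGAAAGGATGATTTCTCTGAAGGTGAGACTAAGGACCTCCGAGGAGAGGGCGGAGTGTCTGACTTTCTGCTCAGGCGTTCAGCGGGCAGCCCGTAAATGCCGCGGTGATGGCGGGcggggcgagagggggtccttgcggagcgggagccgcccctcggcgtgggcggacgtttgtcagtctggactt
Neither window holds AAGGTCA or a longer form of it.

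The remaining mitochondrial enzymes of the spiral act on medium and short chains. Acaa2, the matrix 3-ketoacyl-CoA thiolase, gave 3311, 3014 and 2963 in the hearts labelled KO 1 to 3 and 3763, 3832 and 3795 in WT (log2 difference -0.29, SE 0.0570, limma adjusted p = 0.0221). All WT hearts lay above all hearts labelled KO, and 2 more Acaa2 probe sets were at -0.24 and -0.27. In the one at -0.24 the groups overlapped, with KO 1 at 1951 against 1944, 1975 and 1880 in WT 1 to 3. Hadh, the 3-hydroxyacyl-CoA dehydrogenase of shorter chains, gave 6772, 6467 and 6467 against 7522, 7471 and 7345 (-0.18, SE 0.0444, limma adjusted p = 0.0526). It just missed the threshold with groups that did not overlap, and a second bright probe set was at -0.20. Hsd17b10, which also acts in isoleucine breakdown and mitochondrial tRNA processing, was at 658.8 ± 68.9 in hearts labelled KO and 806.1 ± 39.9 in WT (SD, n = 3 each; -0.29, limma adjusted p = 0.0998). Echs1, the short-chain enoyl-CoA hydratase, gave 1675, 1691 and 1629 against 1697, 1776 and 1596, with overlap and an interval of the log2 difference from -0.16 to 0.12.

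Of the 5 genes for enzymes that handle double bonds, 3 passed. Decr1, the mitochondrial 2,4-dienoyl-CoA reductase, gave 1691, 1664 and 1435 in the hearts labelled KO 1 to 3, against 2345, 2432 and 2186 in WT. It had the smallest adjusted p of the pathway (log2 difference -0.54, SE 0.0756, limma adjusted p = 0.00752), and the heart labelled KO 1 lay almost as far below WT as KO 2. Its second probe set gave 610.6, 513.7 and 510.6 against 820.3, 860.0 and 809.5, a difference of -0.60. Eci1 and Eci2 encode enoyl-CoA isomerases that shift a double bond into the position the spiral can use. Eci1 gave 1810, 1745 and 1759 against 2139, 2239 and 2131 (-0.29, SE 0.0563, limma adjusted p = 0.0222). Eci2 gave 766.1, 677.4 and 659.6 against 886.2, 884.8 and 934.2 (-0.36, SE 0.0772, limma adjusted p = 0.0328). Neither pair of groups overlapped. Ech1, a dienoyl-CoA isomerase, gave 5331 ± 790 in hearts labelled KO and 5991 ± 390 in WT, and Decr2, the peroxisomal dienoyl-CoA reductase, 46.6 ± 3.59 and 55.3 ± 7.13 (SD, n = 3 each). Both overlapped and neither passed.

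Electron transfer flavoprotein collects the electrons of all acyl-CoA dehydrogenases, and its ubiquinone oxidoreductase passes them to the respiratory chain. Etfdh, the oxidoreductase gene, gave 2566, 2342 and 2403 in the hearts labelled KO 1 to 3 and 2826, 2980 and 2942 in WT (log2 difference -0.26, SE 0.0576, limma adjusted p = 0.0375). Its groups were clearly apart. Etfa, the α subunit gene of the flavoprotein, was 1 of the 2 genes with a positive difference, at 2734, 2559 and 2831 against 2572, 2590 and 2403 (0.10, interval -0.03 to 0.24). Etfb, the β subunit gene, gave 3075, 2414 and 2689 against 3103, 3020 and 3035 (-0.17, limma adjusted p = 0.287); 2 of its 3 values in hearts labelled KO lay below WT and that of KO 1 among them. Relative to Etfa within each array, Etfdh was at -0.29, -0.29 and -0.40 in the hearts labelled KO and at -0.09, -0.01 and 0.10 in WT (exact permutation p = 0.1, the smallest possible). The Etfb to Etfa ratio overlapped (exact permutation p = 0.2).

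**Figure D3:**
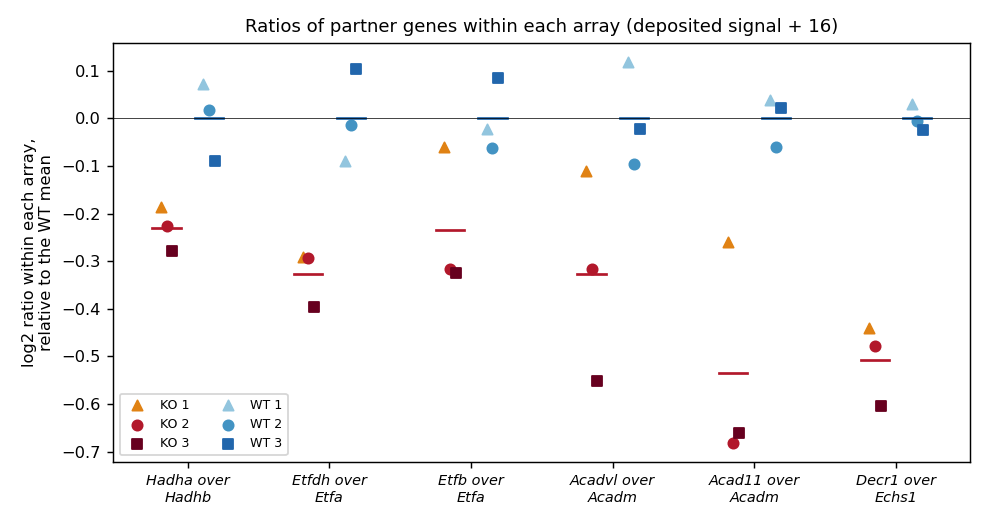
Log2 ratio of 2 genes within each array, from the deposited signal plus 16 and relative to the WT mean, for 6 pairs along the x axis; hearts labelled KO stand left of WT hearts in each pair, and lines are group means. Each gene is read from its brightest probe set. The groups are apart for every pair except Etfb over Etfa, and Acad11 over Acadm has the lowest mean, -0.53.

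The 5 genes listed here as peroxisomal were all below 0 in difference (median -0.36), and 2 passed. This list is not a full count by compartment, since Decr2 and possibly other members are grouped by step above. Ehhadh, the bifunctional enzyme gene known as a target of PPARα in liver, had the lowest difference of the 32 genes. It gave 23.7, 32.3 and 27.5 in the hearts labelled KO 1 to 3, against 46.5, 66.2 and 73.4 in WT (log2 difference -0.82, SE 0.161, limma adjusted p = 0.0230). It is dim, so the added 16 shrinks its difference. Scp2, which encodes a thiolase and a lipid carrier, gave 1196, 1082 and 896.9 against 1473, 1417 and 1327 (-0.41, SE 0.0976, limma adjusted p = 0.0456), and a second bright probe set gave 1147, 932.3 and 934.2 against 1223, 1150 and 1212 (-0.25). Hsd17b4, the other bifunctional enzyme gene, was at 303.8 ± 39.3 in hearts labelled KO and 382.9 ± 11.1 in WT (-0.33, limma adjusted p = 0.104), and Acox3, an oxidase of branched chains, at 24.4 ± 2.42 and 36.0 ± 4.10 (-0.36, limma adjusted p = 0.201; SD, n = 3 each). Their groups did not overlap, yet neither passed. A second Hsd17b4 probe set of like brightness gave 342.5, 249.9 and 265.2 against 341.7, 365.9 and 385.5 (-0.34), with overlap. Acaa1a, the peroxisomal thiolase gene, gave 41.0, 69.7 and 49.0 against 71.1, 74.3 and 65.7, with overlap.

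Mlycd and Fabp3 act before the spiral. Mlycd encodes malonyl-CoA decarboxylase, which removes the inhibitor of carnitine palmitoyltransferase 1. It gave 242.0, 202.9 and 182.7 in the hearts labelled KO 1 to 3, against 280.3, 305.3 and 278.0 in WT (log2 difference -0.44, SE 0.109, limma adjusted p = 0.0547), without overlap, and just missed the threshold. Without the heart labelled KO 1 it passed, at -0.54 (limma adjusted p = 0.00755). Mlycd passed in 5 of 21 settings. Fabp3, the fatty acid binding protein of heart muscle, gave 7471, 6888 and 7281 against 8144, 7922 and 7922 (-0.15, limma adjusted p = 0.115). Its groups did not overlap.

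The heart labelled KO 1, which kept part of its Esrra signal, lay above the other hearts labelled KO for most of these genes. It was the highest of the 3 hearts labelled KO for 21 of the 32 genes, against 35.3% of all genes, and for 9 of the 10 that fell. Ehhadh was the other. Over the 32 genes the median difference from the WT mean came to -0.15 for KO 1, against -0.30 for KO 2 and -0.35 for KO 3. Acad11 had the widest gap of the 32, at -0.25 in KO 1 and -0.82 as the mean of KO 2 and KO 3, and Hadha was at -0.20 and -0.54. Ehhadh ran the other way, at -0.96 and -0.75, and Decr1 and Eci1 differed little between the hearts (-0.45 and -0.58 for Decr1, -0.26 and -0.31 for Eci1). Over all 180 genes that fell, KO 1 was the highest of its group for 69.4%. Whether the residual Esrra signal bears on this was not tested.

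**Figure D4:**
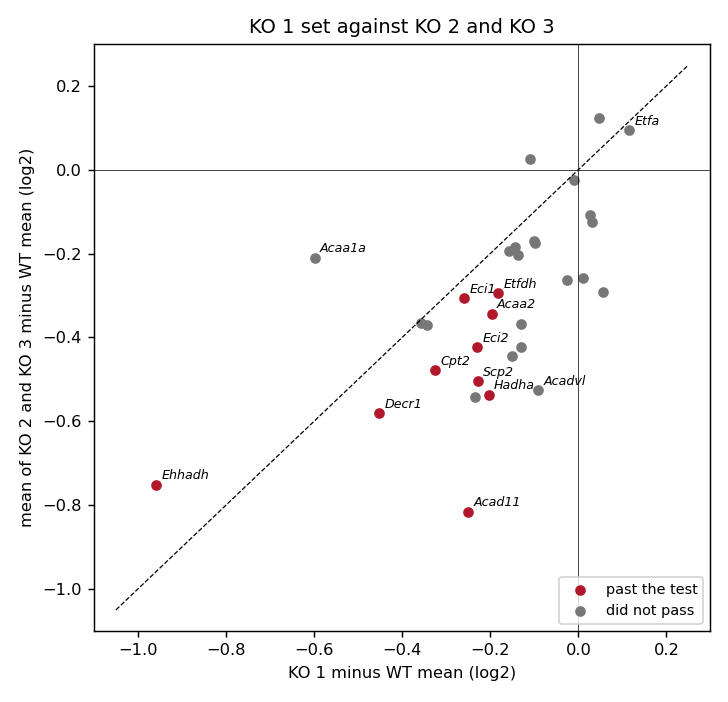
Each of the 32 genes by its log2 difference from the WT mean in the heart labelled KO 1 (x axis) and in the mean of KO 2 and KO 3 (y axis), with equal values on the dashed line. Most points lie under the line, where KO 1 is the higher, and Acads, Acad10, Acaa1a and Ehhadh lie above it.

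Probe sets beyond those read mostly had the same sign. Of 25 other probe sets of 17 genes that passed the filter on dim signals 21 had the sign of the probe set read, as did all 10 with a mean signal of at least 100. The largest gap among those 10 was 0.26 on the log2 scale, for Acad11. The 4 of other sign, for Crat, Acadl, Hadh and Acaa1a, had mean signals under 100.

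The list called other fatty acid oxidation genes here held 38 genes, of which 33 were tested. It is a mixed list, which also holds genes of fatty acid uptake, activation and synthesis and of branched-chain amino acid breakdown. These 33 genes moved less uniformly. Their median was -0.11, 2 fell and 1 rose. Slc25a20, the carnitine carrier given above, fell by 0.57 on the log2 scale (SE 0.0945, limma adjusted p = 0.0131). Abcd3, a transporter of the peroxisomal membrane, gave 670.1, 734.1 and 608.4 in the hearts labelled KO 1 to 3, against 890.1, 936.2 and 896.5 in WT (-0.43, SE 0.0809, limma adjusted p = 0.0198). Acsl6, a long-chain acyl-CoA synthetase, gave 110.9, 306.5 and 293.7 against 72.1, 74.8 and 69.7 (1.40, SE 0.284, limma adjusted p = 0.0260), with the heart labelled KO 1 the nearest of its group to WT. Slc25a20 passed in 17, Abcd3 in 15 and Acsl6 in 13 of 22 settings. For genes of the TCA cycle, which oxidises the acetyl-CoA made here, the median over 17 was -0.02 and 0 passed (limma; 2 lower and 1 higher at an unadjusted p under 0.05). For 32 complex I subunits it was -0.10, with 29 negative and 0 past the test (limma; 10 lower and 0 higher at an unadjusted p under 0.05). These lists share the same hearts and were not tested against each other.

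**Figure D5:**
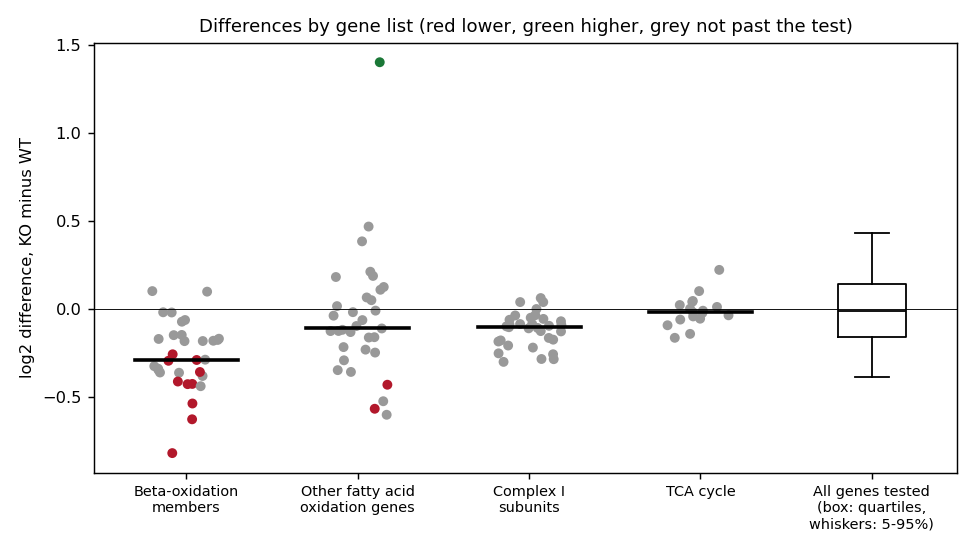
KO minus WT differences on the log2(signal + 16) scale, 1 point per gene, for the 32 beta-oxidation genes, 33 other fatty acid oxidation genes, 32 complex I subunits and 17 TCA cycle genes, with list medians as bars, beside a box of all 12944 genes (quartiles, whiskers from the 5th to the 95th percentile). Medians are -0.29, -0.11, -0.10 and -0.02. The list of other fatty acid oxidation genes is mixed and also holds genes of fatty acid uptake, activation and synthesis and of branched-chain amino acid breakdown.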

How the data were processed

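The authors' deposited values are linear MAS5 signal intensities, 1 for each probe set, per the submitters' processing notes; these sources name no scaling target and detection calls were not used. Of 45099 probe sets 62 were controls. Intensities were taken as log2(signal + 16), quantile normalized between arrays over all other probe sets, and filtered at the 40th percentile of probe set means (a signal of 8.16). An earlier account of these data compared the values as deposited; they were normalized here because the arrays were unequally bright. Genes with 1 symbol in the platform table were read from their brightest probe set, and 12944 genes were fitted by group in limma 3.58.1 (R 4.3.3; lmFit, then eBayes allowing an intensity trend). The code was tested on simulated data. The text names all members, Esrra, Slc25a20 and other listed genes past the test. Members and lists were chosen with earlier results of these data known. Among markers of endothelium, leukocytes, erythroid cells and brown fat, 0 of 6, 0 of 4, 0 of 1 and 0 of 3 tested passed. Equal mouse numbers are not labelled as pairs. Nothing says how the hearts were sampled, so p-values measure the spread between these 6 arrays. Their number limits precision.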

Additional observations from a re-analysis of the deposited data

How the results depend on the processing

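The median difference of the pathway kept its sign in every setting tried and lay between -0.35 and -0.23, while counts of genes past the test moved. The beta-oxidation genes that fell numbered 10, and 6 with the signal as deposited, 2 with no filter on dim probe sets, 0 with no intensity trend, and 1 to 19 when 1 heart was left out; 0 rose in any setting. Among all genes 180 fell and 260 rose. With no filter 66 fell and 127 rose, with no intensity trend 6 and 22, and with 1 heart left out 16 to 479 fell and 36 to 516 rose. With array weights 302 fell. With the mouse number as a replicate block 119 of all genes and 7 of the pathway fell. Deviations of same-numbered hearts correlated at 0.03, -0.03 and 0.04, and those of hearts with unlike numbers at -0.08 to 0.05. The same-numbered values lay within that range, so they do not decide whether the numbers pair the hearts. Of the other fatty acid oxidation genes, 2 fell and 1 rose; 1 fell as deposited, with or without the heart labelled KO 1, 0 fell with no trend, 0 rose with no filter, no trend, a robust prior or the mean of probe sets, 2 rose with array weights, and with 1 heart left out 0 to 5 fell and 0 to 2 rose. Esrra stayed at -2.56 with no filter, no trend and a robust prior but did not pass (limma adjusted p = 0.0657, 0.117 and 0.199), and with 1 heart left out it lay between -3.37 and -2.09, passing only without KO 1.

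Single genes near 0 changed sign without passing. With a gene's probe sets averaged, Acadl was at 0.10. Acads was at 0.0097 with array weights and from -0.084 to 0.039 with 1 heart left out, Echs1 at 0.0045 with cyclic loess and from -0.061 to 0.017, and Acad10 from -0.059 to 0.23. Etfa was at -0.0046 as deposited without the heart labelled KO 1, a setting chosen after seeing the data. Of 731 single-gene results under alternatives 599 kept direction and side of the threshold, 102 no longer passed, 20 newly passed and 10 changed sign. The cause of these shifts was not tested, except that leaving out a heart leaves fewer samples. Detection calls were not used here, so dim genes such as Ehhadh and Acox3 could not be told from background by a call.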
